A study of Mus musculus with 9 samples.

Results

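The 38 genes described here are secreted and metabolic genes of hepatocytes, listed by symbol, and were read in 9 RNA-seq libraries of sorted mouse liver macrophages. All 38 are among the 23413 genes of the raw count table. Male C57BL/6 mice were placed at 5 weeks of age on normal chow (NC, 10 kcal% fat) or a high-fat diet (HFD, 60 kcal% fat) for 8 weeks. HFD-fed mice received vehicle, or DPI (diphenyleneiodonium, an agonist of the receptor GPR3) at 2 mg/kg, every 5 days from week 3, while the labels' treatment field instead gives 500 nM for 24 h. That field, which speaks of purified cells, stands unchanged with all 9 libraries, and the separate treatment label of the NC libraries is n/a. The groups hold 2 NC, 3 vehicle and 4 DPI libraries, 1 mouse each by their titles. The study's figure legend for this sort gives more mice per group than there are libraries, and the labels do not explain the difference. Livers were digested with collagenase and F4/80+CD11b+ cells were sorted, Gr1low by the study's account, and the labels call them Kupffer cells (KCs), the resident macrophages of the liver.

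Hepatocytes are the parenchymal cells of the liver. They secrete albumin, transport proteins, apolipoproteins, protease inhibitors and clotting factors into the plasma, and they house the urea cycle, gluconeogenesis and much of the body's drug metabolism. In a macrophage sort, transcripts of such genes can come from hepatocytes or free RNA that passed the gate, or from macrophages and other blood cells that express the gene. These sources cannot be told apart in the counts. In bulk libraries, fewer cells of a type and less RNA per cell cannot be told apart either.

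Library totals lay between 3534325 and 15585775 counts, of which 27% to 44.5% fell on Rn45s, the precursor of ribosomal RNA. A count of 3 was taken as the smallest told apart from none and stands for 0.192 to 0.849 CPM (counts scaled to the library's total), for counting error only. The 12 general macrophage markers summed to 17176 to 50481 CPM. Lyz2 made up most of this sum in every library, with 62983 to 700389 counts. KC markers were uneven against the label. Clec4f, a lectin of KCs, had 0 counts in NC library 1 and in vehicle libraries 2 and 3, and Marco, a scavenger receptor, had at most 1 count in any library. Across the other marker lists, the range of summed CPM was 270 to 983 for KCs, 3178 to 6228 for monocytes, 30.3 to 89.1 for stellate cells, 89.1 to 328 for T and NK cells, 13 to 430 for B cells and 81.3 to 3969 for erythroid cells. Id3, which other cells also express, made up 46.7% to 95.6% of the KC sum, and the other 10 KC markers summed to 12 to 173 CPM.

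Of the 38 hepatocyte genes, 7 had more than 3 counts in all 9 libraries, 27 in some libraries and 4 in none. Cps1, the entry enzyme of the urea cycle, Tdo2, which opens tryptophan breakdown, and Tat, which opens tyrosine breakdown, had 0 counts in every library. G6pc, the last enzyme of gluconeogenesis, had a single count in DPI library 1. The 38 genes together made up 0.0752% to 0.23% of a library's counts. Haptoglobin (Hp, which binds free haemoglobin) alone held 57% to 81.1% of these counts. Per kilobase of annotated exon, mean scaled levels (TMM-scaled CPM per kb over the 9 libraries) were 584 for Hp, 53.6 for Trf (transferrin, the iron carrier of plasma), 21.8 for Ass1 (argininosuccinate synthase of the urea cycle) and 13.3 for Alb (albumin). The next levels were 11.7 for Serpina1c, 10.1 for Mup3 and 9.89 for Apoa1, and for these the ranges over libraries overlapped with that of Alb. Monocytes, macrophages and developing neutrophils are known to express Hp, and macrophages can express Trf and Ass1.

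**Figure D1:**
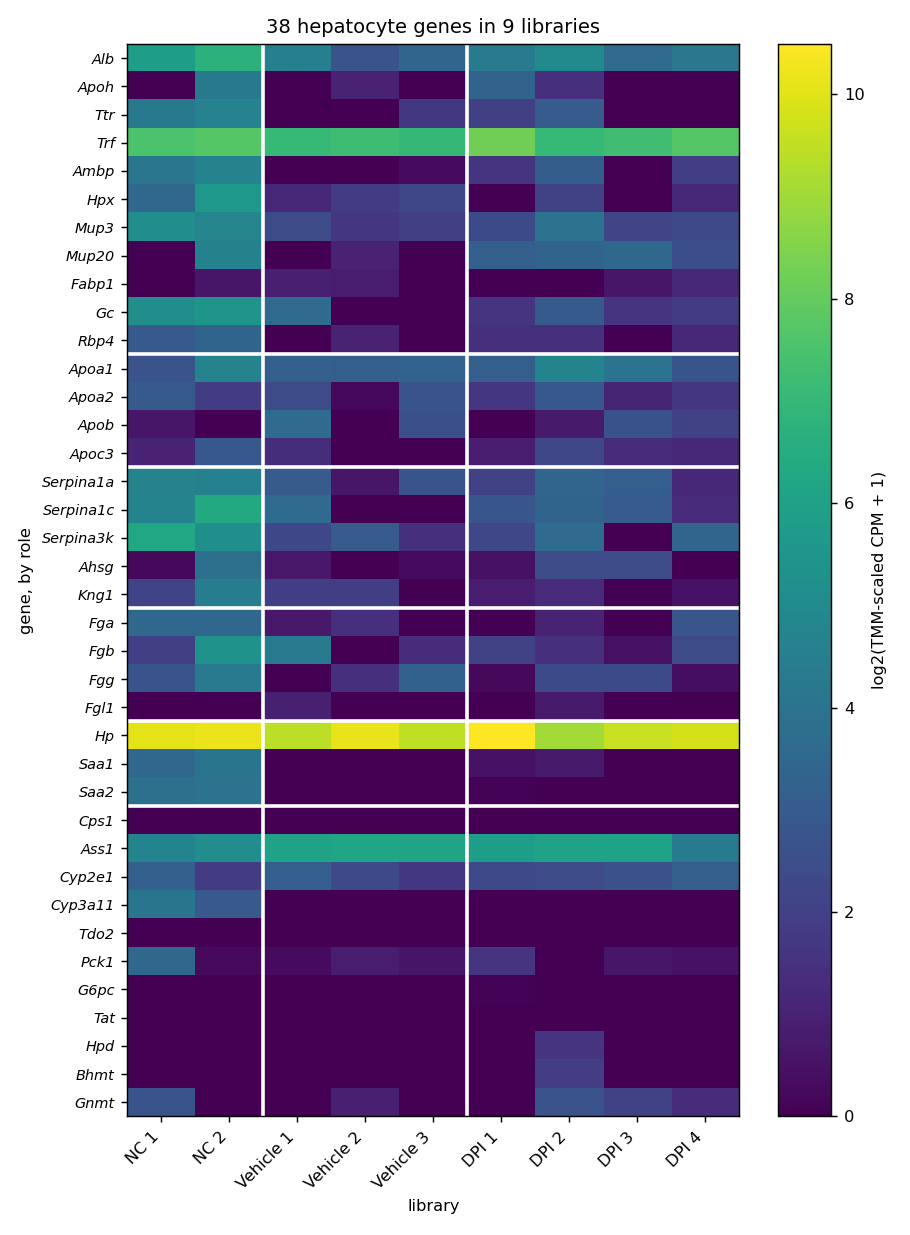
Levels of the 38 hepatocyte genes as log2(TMM-scaled CPM + 1), with libraries as columns in the order NC, vehicle and DPI, and genes as rows by role, parted by white lines. Hp and Trf stand high in all 9 libraries, Cps1, Tdo2 and Tat are at 0 throughout, and most carriers and protease inhibitors are highest in the NC libraries.

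Hp, Trf and Ass1 were the 3 genes with the highest mean CPM and were summed apart from the other 35, a split made on their levels. Their sum was 1490 and 1588 CPM in the NC libraries, 880, 1357 and 752 CPM with vehicle, and 1878, 602, 1014 and 1195 CPM with DPI. In this unit both NC libraries lay above all 3 vehicle libraries and the DPI libraries overlapped with both other groups. In TMM-scaled CPM, the unit of the single genes, vehicle library 2 (1358) lay between the NC libraries (1266 and 1424), so that NC and vehicle overlapped. The 35 other genes summed to 477 and 715 CPM in NC, 119, 41.7 and 48.4 CPM with vehicle, and 88.5, 150, 83.8 and 85.5 CPM with DPI. Both NC libraries lay above all 7 HFD libraries, and vehicle and DPI libraries overlapped. Group means were 596 ± 169 CPM among NC libraries (SD, n = 2), 69.6 ± 42.7 CPM among vehicle libraries (SD, n = 3) and 102 ± 32.1 CPM among DPI libraries (SD, n = 4). These sums are a description and carry no test. Without Rn45s in the denominator they were 728 and 1038 CPM in NC, 57.1 to 188 CPM with vehicle and 120 to 261 CPM with DPI. Between 26 and 27 of the 38 genes had more than 3 counts in an NC library, 15 to 19 in a vehicle library and 17 to 26 in a DPI library. Of all genes, 11105 and 11879 had more than 0 counts in NC, 12053 to 12709 with vehicle and 12343 to 13451 with DPI. Library totals differ, so a fixed count is not the same level in each library.

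**Figure D2:**
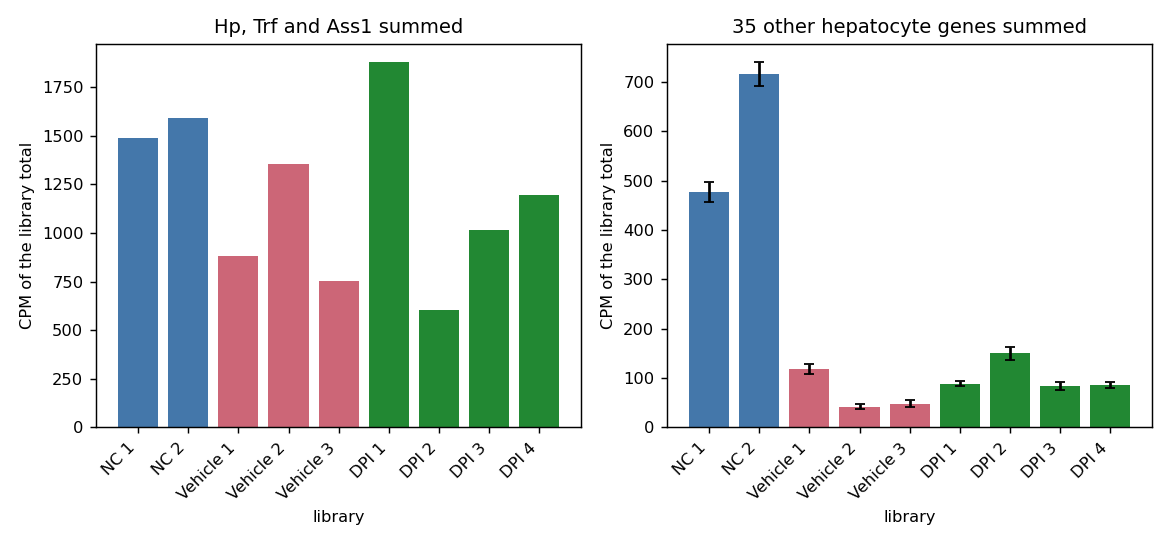
Summed CPM of the library total per library for Hp, Trf and Ass1 (left) and for the 35 other hepatocyte genes (right), in NC (blue), vehicle (red) and DPI (green) libraries. Error bars on the right are 95% exact binomial intervals and cover counting error only, and the NC libraries at 477 and 715 CPM stand above all others on the right but not on the left.

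To see which hepatocyte genes differed with the diet, vehicle-treated HFD libraries were compared with NC libraries. At the study's threshold, an unadjusted p below 0.05 from edgeR and at least 1 log2 unit of change either way, 14 of the 38 genes fell and 1 rose, while 23 did not pass or were not tested. Among all 11393 genes tested, 4.63% fell (528) and 7.03% rose (801) at this threshold, and with scaling by library size alone 933 fell and 539 rose. The filter on low counts left 30 of the 38 genes, and a gene at 0 with HFD passed it only through the other libraries, so neither the count of 14 nor the median over the 30 is independent of the filter. The median log2 fold change of the 30 was -3.31, against 0.03 for all genes tested, and was the same with genes at or under 3 counts in each vehicle library set to their bounds. It was -0.70 over the 6 genes with at least 10 counts in all libraries. No hepatocyte gene had an adjusted p under 0.05 in edgeR, against 0.0614% of all genes upward and 0% downward. An unadjusted p under 0.05 was found for 15 of them and for 13% of all genes, and DESeq2 gave 6 genes with an adjusted p under 0.05, all of them lower, against 0.661% of all genes that were lower in DESeq2 by that measure. Every vehicle library lay below both NC libraries for 16 of the 30, against 12.5% of all genes, and above them for 1, against 15%. With an NC library left out, the other NC library is alone and is assumed to vary like the other groups. Leaving out single NC or vehicle libraries in turn, 7 of the 15 calls held in all 5 edgeR fits, those of Alb, Mup3, Ambp, Serpina3k, Saa1, Saa2 and Cyp3a11. Without NC library 2 the median was -2.07, against 0.29 for all genes, and 3 genes had an adjusted p under 0.05, all lower, against 0.843% of all genes lower.

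Among the 11 carriers of plasma and cytosol, 8 fell and none rose. Alb (chromosome 5 from 90460897 to 90476602, GRCm38) had 308 and 575 counts in NC, 98, 30 and 39 counts under vehicle, and 320, 93, 64 and 167 counts under DPI. In TMM-scaled CPM, which allows for depth, this was 81.7 ± 36.3 (SD, n = 2), 12.3 ± 8.47 (SD, n = 3) and 20 ± 8.35 (SD, n = 4). Every HFD library lay below both NC libraries. The log2 fold change with HFD was -2.74 (standard error 0.59, adjusted p = 0.115 from edgeR), and it was -3.40 without vehicle library 1 and -2.17 without NC library 2. Just upstream of its start on the plus strand, at chr5:90460620-90460869, the Alb promoter carries GTTAAT, the core of sites for the hepatocyte factor HNF1, shown in capitals in this RefSeq sequence (GRCm38.p6):
Alb: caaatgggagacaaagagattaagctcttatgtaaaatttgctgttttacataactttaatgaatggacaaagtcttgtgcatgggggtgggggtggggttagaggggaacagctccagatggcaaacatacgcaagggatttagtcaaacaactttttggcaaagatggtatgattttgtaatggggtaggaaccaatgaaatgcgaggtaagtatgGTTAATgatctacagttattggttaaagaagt
GTTAAT on either strand was found in the 250 bases before the start of 9 of the 29 hepatocyte genes with an entry in the promoter table (31%) and in 6.52% of all 27025 genes there. TGTTTAC, the core of FOXA sites, was found on either strand in 4 of the 29 (13.8%) and 3.09% of all, and the TATA box TATAAA on the gene's strand in 7 (24.1%) and 8.12% of all. These are matches of letters only.

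Mup3 (chromosome 4 from 62083476 to 62087342), a major urinary protein that carries pheromones, had 189 and 141 counts in NC, 19, 12 and 12 counts under vehicle, and 68, 44, 19 and 39 counts under DPI. The HFD libraries all lay below the NC libraries, with a log2 fold change of -3.28 for vehicle (standard error 0.76, adjusted p = 0.131 from edgeR). Ambp (chromosome 4 from 63143275 to 63154799), the precursor of alpha-1-microglobulin and bikunin, had 90 and 132 counts in NC, 0, 0 and 1 under vehicle and 34, 22, 0 and 28 under DPI. It was at least 31.5-fold lower with HFD, computed against 3 counts in each vehicle library (adjusted p = 0.115 from edgeR). Without NC library 2 this bound was 25.2-fold. Ttr, the thyroxine carrier transthyretin, had 99 and 128 counts in NC, 0, 0 and 9 under vehicle and 48, 21, 0 and 0 under DPI, and its HFD log2 fold change was -4.85 (standard error 1.90, adjusted p = 0.329 from edgeR). The other carriers that fell were Gc, the vitamin D binding protein (-3.34 on the log2 scale), Hpx (hemopexin, a haem scavenger, -3.49), Rbp4, the retinol carrier (-4.35), and Mup20 (-4.83). Each of these failed the adjustment. Mup20, or darcin, is another major urinary protein. Its longest coding transcript is 88.8% identical to that of Mup3, so their counts may be split. The fall of Mup20 rested on 1 library, with 0 and 125 counts in NC and 0, 6 and 0 under vehicle. Without NC library 2 its log2 fold change turned to 4.48. Calls were also lost for Hpx without NC library 2 (-1.98) or vehicle library 1 (-3.14) or 2 (-3.49), for Rbp4 without NC library 2 (-4.04) or vehicle library 1 (-3.75) or 3 (-3.77), for Ttr without vehicle library 1 (-4.23) or 2 (-4.23), and for Gc without vehicle library 2 (-2.74) or 3 (-2.72). The only vehicle library with counts also set the size for 4 carriers, whose fitted values without it are no bounds. These were -11.03 for Gc without vehicle library 1, -8.78 for Rbp4 and -9.30 for Mup20 without vehicle library 2, and -10.15 for Ttr without vehicle library 3. Of the remaining carriers, Trf did not pass, with 1013 and 1138 counts in NC, 591, 833 and 511 under vehicle and 4882, 379, 838 and 2073 under DPI. Its log2 fold change with HFD was -0.54 (standard error 0.35, adjusted p = 0.536 from edgeR). Apoh, which binds phospholipids, had 0 and 95 counts in NC, 0, 6 and 0 under vehicle and 149, 5, 0 and 0 under DPI, and the intracellular fatty acid carrier Fabp1 had at most 12 counts.

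Among the 5 protease inhibitors and related plasma proteins, 3 fell. Serpina3k (chromosome 12 from 104338486 to 104346144), also called contrapsin, had 415 and 194 counts in NC, 17, 39 and 7 under vehicle and 60, 34, 0 and 95 under DPI, and its log2 fold change with HFD was -3.72 (standard error 1.10, adjusted p = 0.222 from edgeR). It was -3.08 without NC library 1 and -4.33 without vehicle library 2. Serpina1a and Serpina1c encode forms of alpha-1-antitrypsin, and lie 31363 bases apart on chromosome 12. Serpina1a had 136 and 124 counts in NC, 32, 3 and 23 under vehicle and 50, 29, 42 and 12 under DPI. Serpina1c had 140 and 438 counts in NC, 53, 0 and 0 under vehicle and 99, 28, 39 and 14 under DPI. All HFD libraries lay below the NC libraries for both genes, with log2 fold changes of -2.43 (standard error 0.98) and -3.77 (standard error 1.37) for vehicle, adjusted p 0.336 and 0.298 from edgeR. The call of Serpina1a was lost without vehicle library 2 (-1.90) and that of Serpina1c without NC library 2 (-2.68). Without vehicle library 1, which held all 53 vehicle counts of Serpina1c, its fitted value was -11.49, and with the others at 0 this is no bound. Their longest coding transcripts are 97.9% identical, so the counting could have split reads between them, and their values are uncertain. The promoters show the same closeness, with 95.5% identity in RefSeq (GRCm38.p6) and GTTAAT in capitals near the start in both, on the minus strand at chr12:103863620-103863869 and chr12:103904951-103905200:
Serpina1a: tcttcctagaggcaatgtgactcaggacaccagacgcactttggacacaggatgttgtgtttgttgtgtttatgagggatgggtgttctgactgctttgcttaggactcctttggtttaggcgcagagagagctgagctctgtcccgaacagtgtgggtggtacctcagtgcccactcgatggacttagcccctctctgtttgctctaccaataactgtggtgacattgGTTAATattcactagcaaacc
Serpina1c: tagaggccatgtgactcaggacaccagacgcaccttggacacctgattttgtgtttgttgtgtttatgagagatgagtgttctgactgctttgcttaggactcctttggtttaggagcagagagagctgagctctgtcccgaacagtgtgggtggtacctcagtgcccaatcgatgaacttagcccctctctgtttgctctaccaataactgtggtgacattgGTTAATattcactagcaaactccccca
Ahsg (fetuin-A) had 1 and 74 counts in NC and at most 3 under vehicle, and Kng1, the kininogen that gives bradykinin, had 19 and 110 counts in NC, 13, 16 and 0 under vehicle and at most 13 under DPI. Neither passed the threshold.

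Of the 3 acute phase genes, which the liver raises in inflammation, Saa1 and Saa2 (serum amyloid A) fell and Hp did not pass. Saa1 had 56 and 85 counts in NC, 0 in all 3 vehicle libraries and 7, 2, 0 and 0 under DPI. Saa2 (chromosome 7 from 46751790 to 46754313) had 76 and 81 counts in NC, 0 under vehicle and 1, 0, 0 and 0 under DPI. Both genes were thus near or at 0 in all 7 HFD libraries. Against 3 counts in each vehicle library, Saa1 was at least 20-fold and Saa2 at least 22.2-fold lower with HFD, with adjusted p 0.14 and 0.0816 from edgeR. Without NC library 2 these bounds were 15.7-fold and 21.3-fold. Saa1 and Saa2 lie 8809 bases apart, on opposite strands, and share 94.4% of their longest coding transcripts, so their counts may be split as well. Their promoters are set side by side to show how alike they are. The RefSeq sequence of Saa1 is on the minus strand at chr7:46742981-46743230, that of Saa2 on the plus strand at chr7:46751583-46751789, ending where GENCODE places the gene, and capitals in Saa2 mark the 12 of 207 bases that differ from Saa1 (GRCm38.p6):
Saa1: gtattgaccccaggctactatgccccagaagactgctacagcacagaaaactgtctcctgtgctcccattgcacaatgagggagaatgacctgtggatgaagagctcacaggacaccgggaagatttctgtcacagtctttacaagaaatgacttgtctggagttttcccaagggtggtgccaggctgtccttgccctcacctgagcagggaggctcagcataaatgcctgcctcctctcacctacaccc
Saa2: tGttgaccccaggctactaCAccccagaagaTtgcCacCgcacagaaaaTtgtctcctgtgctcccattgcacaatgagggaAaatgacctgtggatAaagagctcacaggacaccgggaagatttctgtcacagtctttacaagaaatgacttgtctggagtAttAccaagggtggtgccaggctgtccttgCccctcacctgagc
None of the motifs searched was found in either. Hp (chromosome 8 from 109575128 to 109579172) had 5798 and 6305 counts in NC, 3136, 6263 and 2908 under vehicle and 23451, 1558, 4241 and 8766 under DPI. In TMM-scaled CPM the means were 1117 ± 85.9 (SD, n = 2) in NC, 851 ± 247 (SD, n = 3) under vehicle and 912 ± 382 (SD, n = 4) under DPI. The groups overlapped between vehicle and DPI, and the log2 fold change with HFD was -0.39 (standard error 0.37, adjusted p = 0.703 from edgeR). Hp was highest in DPI library 1, where the macrophage and monocyte markers also had their highest sums, 50481 and 6228 CPM. Lyz2 alone made up most of that macrophage sum, with 700389 counts in this library. The neutrophil markers, of cells that a Gr1low gate would remove, summed to 1307 CPM there, within their range of 879 to 6274 CPM over all libraries. The part of these cell types in the Hp counts was not tested.

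**Figure D3:**
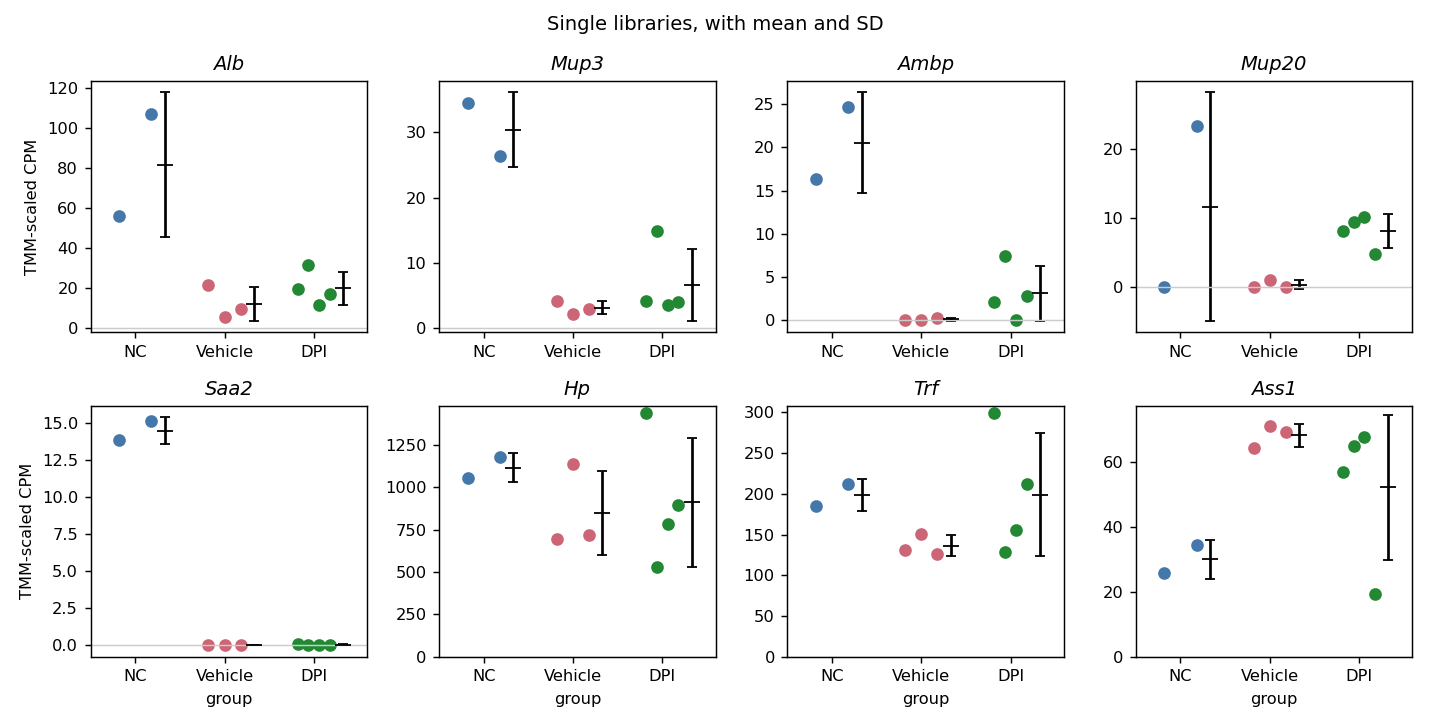
TMM-scaled CPM of 8 hepatocyte genes in single libraries (points) by group, with the group mean (black dash) and SD (bar). Alb, Mup3, Ambp and Saa2 lie lower in all HFD libraries than in NC, Mup20 is split in NC, Hp overlaps between groups, Trf is lower in all vehicle libraries than in NC, and Ass1 is higher in all vehicle libraries.

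No gene of the apolipoproteins or of fibrinogen passed the threshold. Apoa1, the main protein of high-density lipoprotein, had 30 and 133 counts in NC, 37, 44 and 36 under vehicle and 132, 76, 81 and 55 under DPI, and the groups overlapped. Apoa2 had 1 to 38 counts in a library and Apoc3 0 to 34. Apob, the backbone of very low-density lipoprotein, had 3 and 0 counts in NC, 52, 0 and 20 under vehicle and 0, 2, 28 and 31 under DPI, and so was near the floor in both NC libraries where Alb was highest. The fibrinogen chains lie next to each other on chromosome 3, with 11026 bases between Fgg and Fga and 6513 between Fga and Fgb. Fga had 59 and 56 counts in NC, 3, 9 and 0 under vehicle and 0, 3, 0 and 57 under DPI. Fgb had 16 and 210 counts in NC and 86, 0 and 6 under vehicle, and Fgg had 31 and 105 in NC and 0, 9 and 35 under vehicle. The chains thus did not keep a common ratio between libraries, although they form a single protein. Fgl1, a fibrinogen-like protein, had at most 4 counts.

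Of the 11 enzymes, 1 fell and 1 rose. Cyp3a11 (chromosome 5 from 145854426 to 145879964), the main drug-oxidizing P450 of mouse liver, had 88 and 35 counts in NC and 0 in all 7 HFD libraries. It was at least 17.3-fold lower with vehicle, against 3 counts in each library (adjusted p = 0.178 from edgeR). The bound was 10-fold without NC library 1. DESeq2 did not call it (adjusted p = 0.347). Cyp2e1, an ethanol-oxidizing P450, was found in every library, with 45 and 14 counts in NC, 35, 22 and 9 under vehicle and 64, 13, 27 and 79 under DPI, and its groups overlapped. Ass1 (chromosome 2 from 31470207 to 31520672) went the other way, with 142 and 184 counts in NC, 290, 392 and 279 under vehicle and 930, 191, 365 and 190 under DPI. In TMM-scaled CPM it rose from 30.1 ± 6.01 (SD, n = 2) to 68.2 ± 3.46 (SD, n = 3) under vehicle, and no vehicle library overlapped with NC. The log2 fold change was 1.18 (standard error 0.48, adjusted p = 0.339 from edgeR). It no longer passed without NC library 1 (1.00), without vehicle library 2 (1.15), or with scaling by library size alone (0.89), a scaling that moved the median of all genes from 0.03 to -0.26. Pck1, which drives gluconeogenesis, had 59 and 1 counts in NC, at most 4 under vehicle and 33 in DPI library 1, and Gnmt, a glycine methyltransferase, had 31 and 0 in NC. Hpd, of tyrosine breakdown, and Bhmt, of methionine synthesis, were found only in DPI library 2, at 6 and 8 counts.

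**Figure D4:**
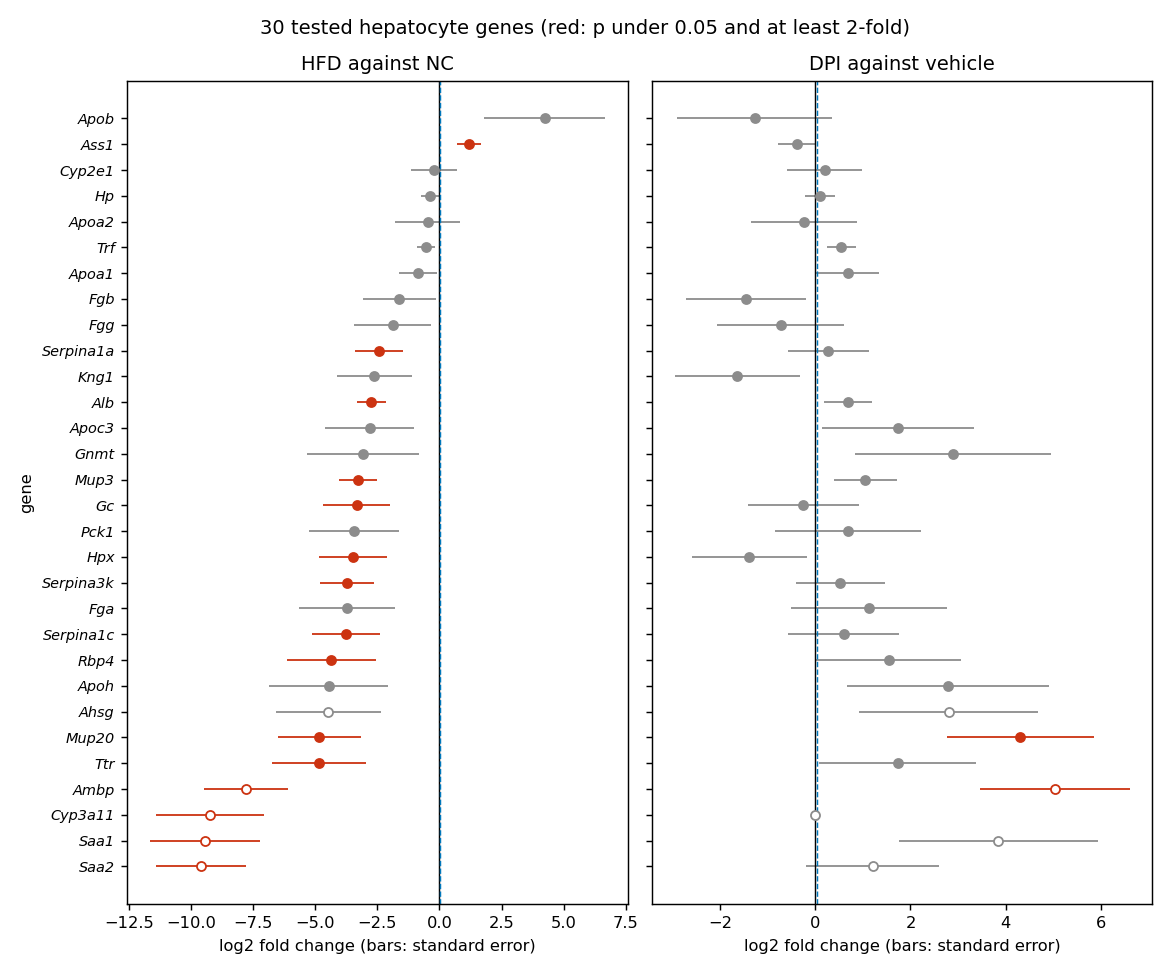
Log2 fold changes with standard errors of the 30 tested hepatocyte genes for HFD against NC (left) and DPI against vehicle (right), ordered by the left panel, with the median of all genes as a dashed line. Red marks genes past the study's threshold (15 on the left, 2 on the right), and open points are genes at or under 3 counts in each vehicle library, whose fitted value is no bound.

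The 2 NC libraries, from separate mice by their titles, differed across genes in general and hepatocyte genes alike. NC library 2 had 95 counts of Apoh, 125 of Mup20 and 74 of Ahsg against 0, 0 and 1 in NC library 1, which in turn had 59 counts of Pck1 and 31 of Gnmt against 1 and 0. Of the 29 tested hepatocyte genes with at least 20 counts in the pair, 24 (82.8%) had a share in NC library 2 whose 95% exact binomial interval left out the 49.4% given by scaled depth. The same held for 76.8% of the 9873 tested genes with as many counts, a share near that of the hepatocyte genes. The interval covers counting error only and not the spread between mice. For Saa2, Gc, Rbp4, Fga and Serpina1a the interval took in the share given by depth.

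**Figure D5:**
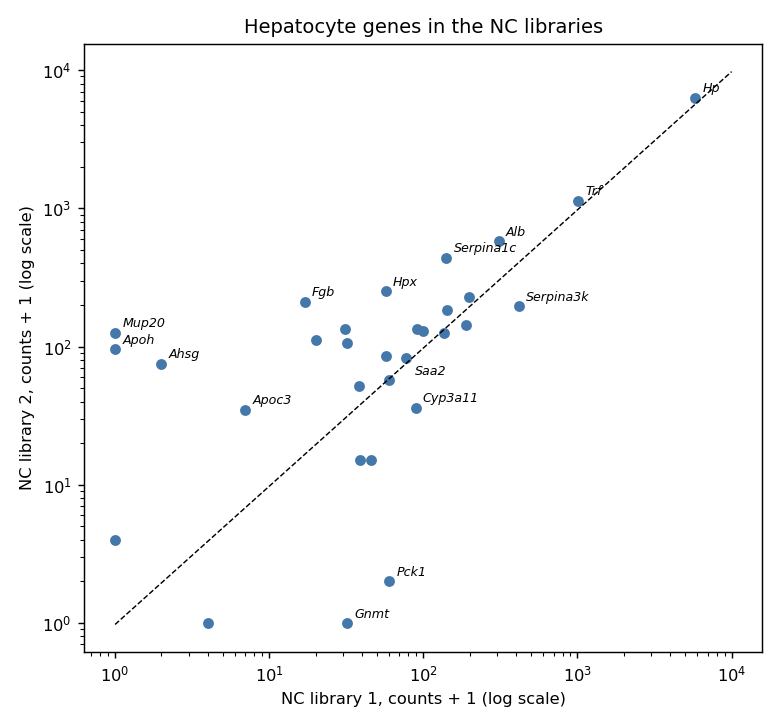
Counts of hepatocyte genes in NC library 1 and NC library 2, each plus 1 and on log scales, with the ratio of scaled depths as a dashed line and 15 genes named. Hp and Trf lie near the line, Mup20, Apoh and Ahsg far above it, and Pck1 and Gnmt far below.

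Other hepatocyte genes were read from a list of 90, of which 89 are in the table, 17 had 0 counts in every library and 25 had enough counts to be tested. With HFD, 5 fell and 2 rose. Those that fell were Serpinc1 (antithrombin, -4.54 on the log2 scale), Apoa5, Vtn (vitronectin), the P450 gene Cyp2f2 and Apoc1 (-1.67), with adjusted p from 0.297 to 0.376 in edgeR. Hsd11b1, which reactivates glucocorticoids (1.49), and Hal, of histidine breakdown, rose, Hal from 0 counts in both NC libraries to 27, 2 and 0 under vehicle. The genes of this list with the most counts, Gstp1, F10 and Cyp27a1, overlapped between groups, and macrophages are known to express them. None of the 11 transcription factors and receptors of hepatocytes, among them Hnf4a and Asgr1, had enough counts to be tested. For zonation, 1 of 6 tested pericentral genes fell (Cyp3a11) and 1 rose (Glul), and among 5 tested periportal genes 1 fell (Cyp2f2) and 2 rose (Ass1 and Hal).

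Some markers of other liver cells also differed with HFD. Of 11 markers of sinusoidal endothelial cells, 5 fell and 1 rose (Pecam1, 2.66 on the log2 scale), and their sum was 604 and 700 CPM in NC, 393 to 506 CPM with vehicle and 295 to 617 CPM with DPI, much of it from Fcgr2b, which macrophages also express. Clec4g, a lectin of these cells, had 390 and 502 counts in NC, 0, 0 and 7 under vehicle and 936, 95, 0 and 52 under DPI. Stab2, their scavenger receptor, had 211 and 276 counts in NC and 0, 1 and 8 under vehicle, while DPI libraries held 617, 69, 0 and 17. In DPI library 1 the endothelial sum was 617 CPM, within the NC range, while the 35 hepatocyte genes summed to 88.5 CPM, below both NC libraries. Of 4 tested cholangiocyte markers 1 fell and 1 rose, of 12 neutrophil markers 3 fell and 1 rose, and of 12 macrophage markers 2 fell. Erythroid and stellate lists had none that fell or rose, T and NK and B cell lists had none that fell and 1 each that rose (Cd3e, 2.23, and Cd79b, 2.73, on the log2 scale), and 1 of 6 tested monocyte and 1 of 7 tested KC markers fell and 1 of each rose. The part of these cells in the differences of hepatocyte genes was not tested.

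To ask whether DPI changed hepatocyte transcripts in HFD-fed mice, the 4 DPI libraries were compared with the same 3 vehicle libraries. The shared libraries tie this comparison to the preceding one. Of the 38 genes 2 rose and none fell at the study's threshold, which 1.5% of all genes tested passed upward (171), 1.34% downward (153) and 2.84% either way. With scaling by library size alone 196 of all genes rose and 101 fell. Without vehicle library 1, 5 hepatocyte genes rose, as did 122 of all 11352 genes tested. Without vehicle library 2, 3 hepatocyte genes rose, as did 214 of all 11219 genes tested. The median log2 fold change of the 30 tested genes was 0.64, against 0.04 for all genes. Genes at or near 0 under vehicle passed the filter only through NC or DPI libraries. Neither the count of 2 nor this median is therefore independent of the filter, and Cyp3a11 enters the median at 0 with no counts in either group. No hepatocyte gene had an adjusted p under 0.05 in edgeR or in DESeq2, and 2 had an unadjusted p under 0.05 in edgeR, as did 4.13% of all genes. All DPI libraries lay above all vehicle libraries for 1 of the 30, against 3.38% of all genes, and below them for 0, against 2.48%. Ambp, at 0, 0 and 1 counts under vehicle, had 34, 22, 0 and 28 under DPI, and was at least 4.77-fold higher on average (adjusted p = 0.999 from edgeR), with DPI library 3 at 0. The bound was 2.53-fold without DPI library 2. Mup20 had 0, 6 and 0 counts under vehicle and 132, 28, 55 and 47 under DPI, and no DPI library overlapped with vehicle. Its log2 fold change was 4.31 (standard error 1.55, adjusted p = 0.999 from edgeR), and the call was lost without vehicle library 1 (3.76) or 3 (3.79). Without vehicle library 2, the only one with counts, its fitted value was 8.78, which is no bound. Log2 fold changes were 0.10 for Hp (standard error 0.31), 0.55 for Trf (standard error 0.30) and -0.39 for Ass1 (standard error 0.38), each with adjusted p = 0.999 from edgeR. The sign of Hp turned without DPI library 1 (-0.21), vehicle library 1 (-0.04) or vehicle library 3 (-0.02). Of the sinusoidal endothelial markers 3 of 11 rose with DPI and none fell. Neutrophil markers rose in 3 of 12 and macrophage markers in 2 of 12, while of 4 tested cholangiocyte markers 1 rose and 1 fell. Of the 25 tested genes in the list of other hepatocyte genes, 1 rose (Cyp2f2) and 0 fell. The part of these other cells in the differences was not tested.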

How the data were processed

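Counts of 9 libraries were used, mapped to groups by their titles. The authors produced gene counts on mm10. Their methods name RSEM and bowtie2, while the submitters' processing notes name TopHat2 and edgeR. They deposited raw whole-number counts without normalization. Members of multigene families (Saa, Serpina1, Mup) are close in sequence, so they could share reads, which was not tested. All columns belonged to mapped libraries.

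Genes were filtered with filterByExpr, scaled by TMM factors and tested in edgeR 4.0.16 (R 4.3.3, glmQLFit, 3 groups in 1 fit, biological coefficient of variation 0.65), with Benjamini-Hochberg adjustment over 11393 genes. The standard error is the size of the log2 fold change over the root of F. Also used were Python 3.11.15 with pandas 2.3.3, scipy 1.17.1 and numpy 2.4.6, and DESeq2 1.42.0. P-values measure the spread between these libraries. Positions and exon lengths came from GENCODE M21, and promoters from RefSeq. Counts were simulated for HFD against NC with the common dispersion of these data for every gene. Of 200 genes lowered by 3 on the log2 scale, 167 passed the study's threshold and 57 had an adjusted p under 0.05, among 11393 genes. The 200 were drawn from all genes tested, so the recovery need not hold for hepatocyte genes, many of them near 0 counts.

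The members and lists were chosen with earlier results of these data known. Fold changes were printed for members past the study's threshold and for the 3 with the highest mean CPM, and other hepatocyte genes were named if past it or highest in CPM. Alternatives were other scalings, filters and tools, fits of 2 groups, a replicate block, no Rn45s, thinning to 3534325 counts and each library left out. Same-numbered libraries did not deviate together (r from -0.02 to 0.08 over 7 pairs).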

Additional observations from a re-analysis of the deposited data

Results flagged for a closer look

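In the DPI group, 4 hepatocyte genes and the sum of the 35 lower hepatocyte genes had 1 library apart from the others by more than Dixon's 95% limit for 4 samples, out of 33 values examined. Chance flags about 1 in 20 such groups. The gap over the range was 0.944 for Mup3, 0.857 for Gc, 0.929 for the sum, and 1 for both Hpd and Bhmt, which had 0 counts in the other libraries. For these genes, at 6 and 8 counts, the ratio is 1 by construction, and the sum contains Mup3 and Gc, so the values are not separate flags to set against that rate. In each case the high library was DPI library 2, the smallest at 3534325 counts. The cause was not tested.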

How the results depend on the processing

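For HFD against NC, the 14 lower calls became 10 to 17 when single libraries were left out and 2 under a minimum of 10 counts in each library, which left 6 genes, and 10 of the 14 remained with DESeq2 and 10 with the replicate block. DESeq2 did not call Cyp3a11 (-8.19) or Ttr (-4.87) and gave no p for Serpina1c or Gc. The higher call became 0 with library size scaling, 2 with DESeq2, and 0 to 1 with libraries left out. Genes with an adjusted p under 0.05 were 3 without a filter, 6 with DESeq2, and 0 to 3 with libraries left out. The median moved to -0.70 with at least 10 counts, fewer genes being tested, and ranged from -3.54 to -2.07 with libraries left out. Mup20 for HFD ranged from -9.30 to 4.48 and Hp for DPI from -0.21 to 0.36 with libraries left out. For DPI against vehicle, the 2 higher calls became 0 with at least 10 counts, 1 with the replicate block, and 2 to 5 with libraries left out (5 without vehicle library 1). The mean sum of the 38 genes, 2135 CPM in NC, 1066 with vehicle and 1274 with DPI, became 3174, 1647 and 1857 CPM without Rn45s and 1869 CPM in NC with TMM scaling. Same-numbered libraries share only a number (r under 0.1 in all 7 pairs), and the block is given for completeness. Over all genes, HFD calls (801 higher, 528 lower) became 381 higher and 345 lower under the minimum of 10 counts, 287 lower with the block, 349 lower without vehicle library 3, and 1793 higher and 841 lower without NC library 2. DPI calls (171 higher, 153 lower) became 281 and 321 without a filter, 65 higher under the minimum of 10 counts, 251 lower with the block and 239 lower with 2 groups only. With libraries left out, higher DPI calls became 277 (NC library 1), 267 (NC library 2), 102 (DPI library 1) and 113 (DPI library 2), and lower ones 266 (NC library 1), 275 (NC library 2), 65, 307 and 84 (vehicle libraries 1, 2 and 3) and 259 (DPI library 4). Depth limits genes near 3 counts.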
